A study of Mus musculus with 16 samples.

Results

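The transcription factor p53, encoded by Trp53, and 9 of its known target genes (Cdkn1a, Mdm2, Ccng1, Phlda3, Zmat3, Trp53inp1, Aen, Perp and Sesn1) were followed through cultures of mouse T-ALL (T-cell acute lymphoblastic leukaemia). The 10 genes were taken by symbol from the 13474 genes of the deposited expression table, and all 10 had a row. They were read line by line, beside the transcript level of Cdkn2a, and each drug-resistant culture was set beside the parental culture of its own line. RNA was sequenced from 16 cultures, 1 library each: 11 resistant derivatives and 5 parental cultures. By drug, 3 derivatives were resistant to cytarabine (lines 2883, 2869 and 7298), 3 to vincristine (2883, 2696 and 2869), 2 to etoposide (2883 and 2696), 2 to prednisone (2883 and 2641) and 1 to methotrexate (2883).

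Per the labels, lines 2883 (6 libraries), 2696 (3), 2869 (3) and 2641 (2) came from Mcm2cre/cre mice, a hypomorph of the replicative helicase subunit Mcm2. Line 7298 (2 libraries) came from SCL/LMO1 transgenic mice. Genotype therefore separates 1 line from the other 4, and parental and resistant cultures of a line carry the same alleles. Thymus is given as the source of all 16 cultures, parental cultures received PBS, and the labels give neither doses nor whether drug was present at harvest. A genotype, drug or Cdkn2a state held by 1 line cannot be told apart from the line itself. Mcm2 stood at 20.9 to 29.2 FPKM in line 7298 and 3.53 to 12.2 FPKM in the other 4 lines, without overlap. Of 13 T lineage markers, all had a row and 10 were at 1 FPKM or more in every library. B lineage, myeloid, erythroid and stromal markers were covered by 3 rows out of 17 listed genes, and Cd79b, Itgam and Pdgfrb peaked at 3.86, 0.593 and 10.9 FPKM. Sequencing depth was 14066000 to 18956000 reads in resistant libraries and 12142000 to 13498000 in parental ones, so depth separates these groups. Its part in the comparisons of resistant with parental cultures was not tested.

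In unstressed cells p53 protein is kept low by the ubiquitin ligase Mdm2, which is itself a p53 target and closes a feedback loop. DNA damage and oncogene signals release p53 from Mdm2. Oncogene signals act through the Arf product of Cdkn2a, which binds Mdm2, and loss of the Cdkn2a locus is common in mouse and human T-ALL. Active p53 then raises genes for cell cycle arrest (Cdkn1a), death and growth restraint (Perp, Aen, Phlda3, Trp53inp1), RNA regulation (Zmat3), stress metabolism (Sesn1) and its own feedback (Mdm2, Ccng1). A transcript level of Trp53 says little about p53 activity, which is set mostly at the protein. The sequence of the Trp53 transcripts, and thus whether they encode a working protein, was not analysed here.

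p53 binds DNA as a tetramer at pairs of a 10-base motif, here called the p53 decamer, and stretches of 3 target promoters and of the Trp53 promoter are shown because they differ in how many of these motifs they hold. RefSeq promoter windows on GRCm38.p6, from 250 bases before to 50 bases after the start, were found for 7 of the 10 genes. In the stretches below each is read 5′ to 3′ on the strand of the gene, and capitals mark p53 decamers, a second one with 1 mismatch included.
Cdkn1a (chr17:29090886-29090967, + strand): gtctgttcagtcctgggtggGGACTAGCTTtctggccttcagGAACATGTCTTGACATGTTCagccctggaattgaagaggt
Ccng1 (chr11:40755442-40755501, - strand): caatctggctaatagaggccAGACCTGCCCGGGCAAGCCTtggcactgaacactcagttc
Mdm2 (chr10:117710915-117710964, - strand): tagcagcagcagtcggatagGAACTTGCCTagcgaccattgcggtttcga
Trp53 (chr11:69580264-69580313, + strand): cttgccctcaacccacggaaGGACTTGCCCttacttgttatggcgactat
A p53 decamer stood in 7 of the 10 windows of these 7 genes (at least 1 window each of Trp53, Cdkn1a, Mdm2, Ccng1, Aen and Sesn1), against 8.36% of all 32851 promoter windows. The windows of Aen overlap and hold the same decamer, which is counted in each of them. The motif reads the same on both strands. In 2 of the 10 windows, of Cdkn1a and Ccng1, 2 decamers lay at most 13 bases apart with up to 1 mismatch in 1 of them, against 1.09% of all windows. In both stretches the exact and the mismatched decamer adjoin with 0 bases between them, and the Cdkn1a stretch holds a further exact decamer upstream of that pair. No p53 decamer was found in the Phlda3 window. A match describes letters only and is no evidence of binding in these cells.

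The levels below are FPKM, reads scaled to depth and length, in which the authors' length is the whole gene span with introns. FPKM is therefore compared between libraries and never between genes. The lowest deposited values of each library were taken as 0.1 read, which gave its depth and then the reads of each gene. These reads give the 95% exact (Clopper-Pearson) intervals of ratios between 2 libraries, which cover counting error only. A difference on the log2 scale is of log2(FPKM + 1), which understates changes of low genes.

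Cdkn2a reads were frequent in line 2883 and at or near 0 in the other 4 lines. It had 5.36 to 7.45 FPKM (median 6.35) over the 6 libraries of line 2883, from 1521 to 2164 reads each. The other 10 libraries held 15 reads in the parental culture of line 2641 and 0 reads in each of the other 9, and 0 reads allow up to 3 at this depth. Prednisone-resistant cells of line 2641 had 0 reads, against 15 in their parental culture. With 3 reads set in place of 0 this is 7.13-fold lower, the counting error of the 15 left out. Within line 2883 each of the 5 derivatives had 0.78 to 1.08 times the parental Cdkn2a level. The row joins the Arf and Ink4a transcripts, which cannot be told apart here. Cdkn2b, the neighbouring inhibitor gene on chromosome 4, had 32 to 57 reads in line 2883 and 19 to 32 in line 7298, and 0 or 1 read in the 8 libraries of lines 2696, 2869 and 2641. Mtap, on the other side of Cdkn2a, was read in all 16 libraries (1375 to 5624 reads).

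**Figure D1:**
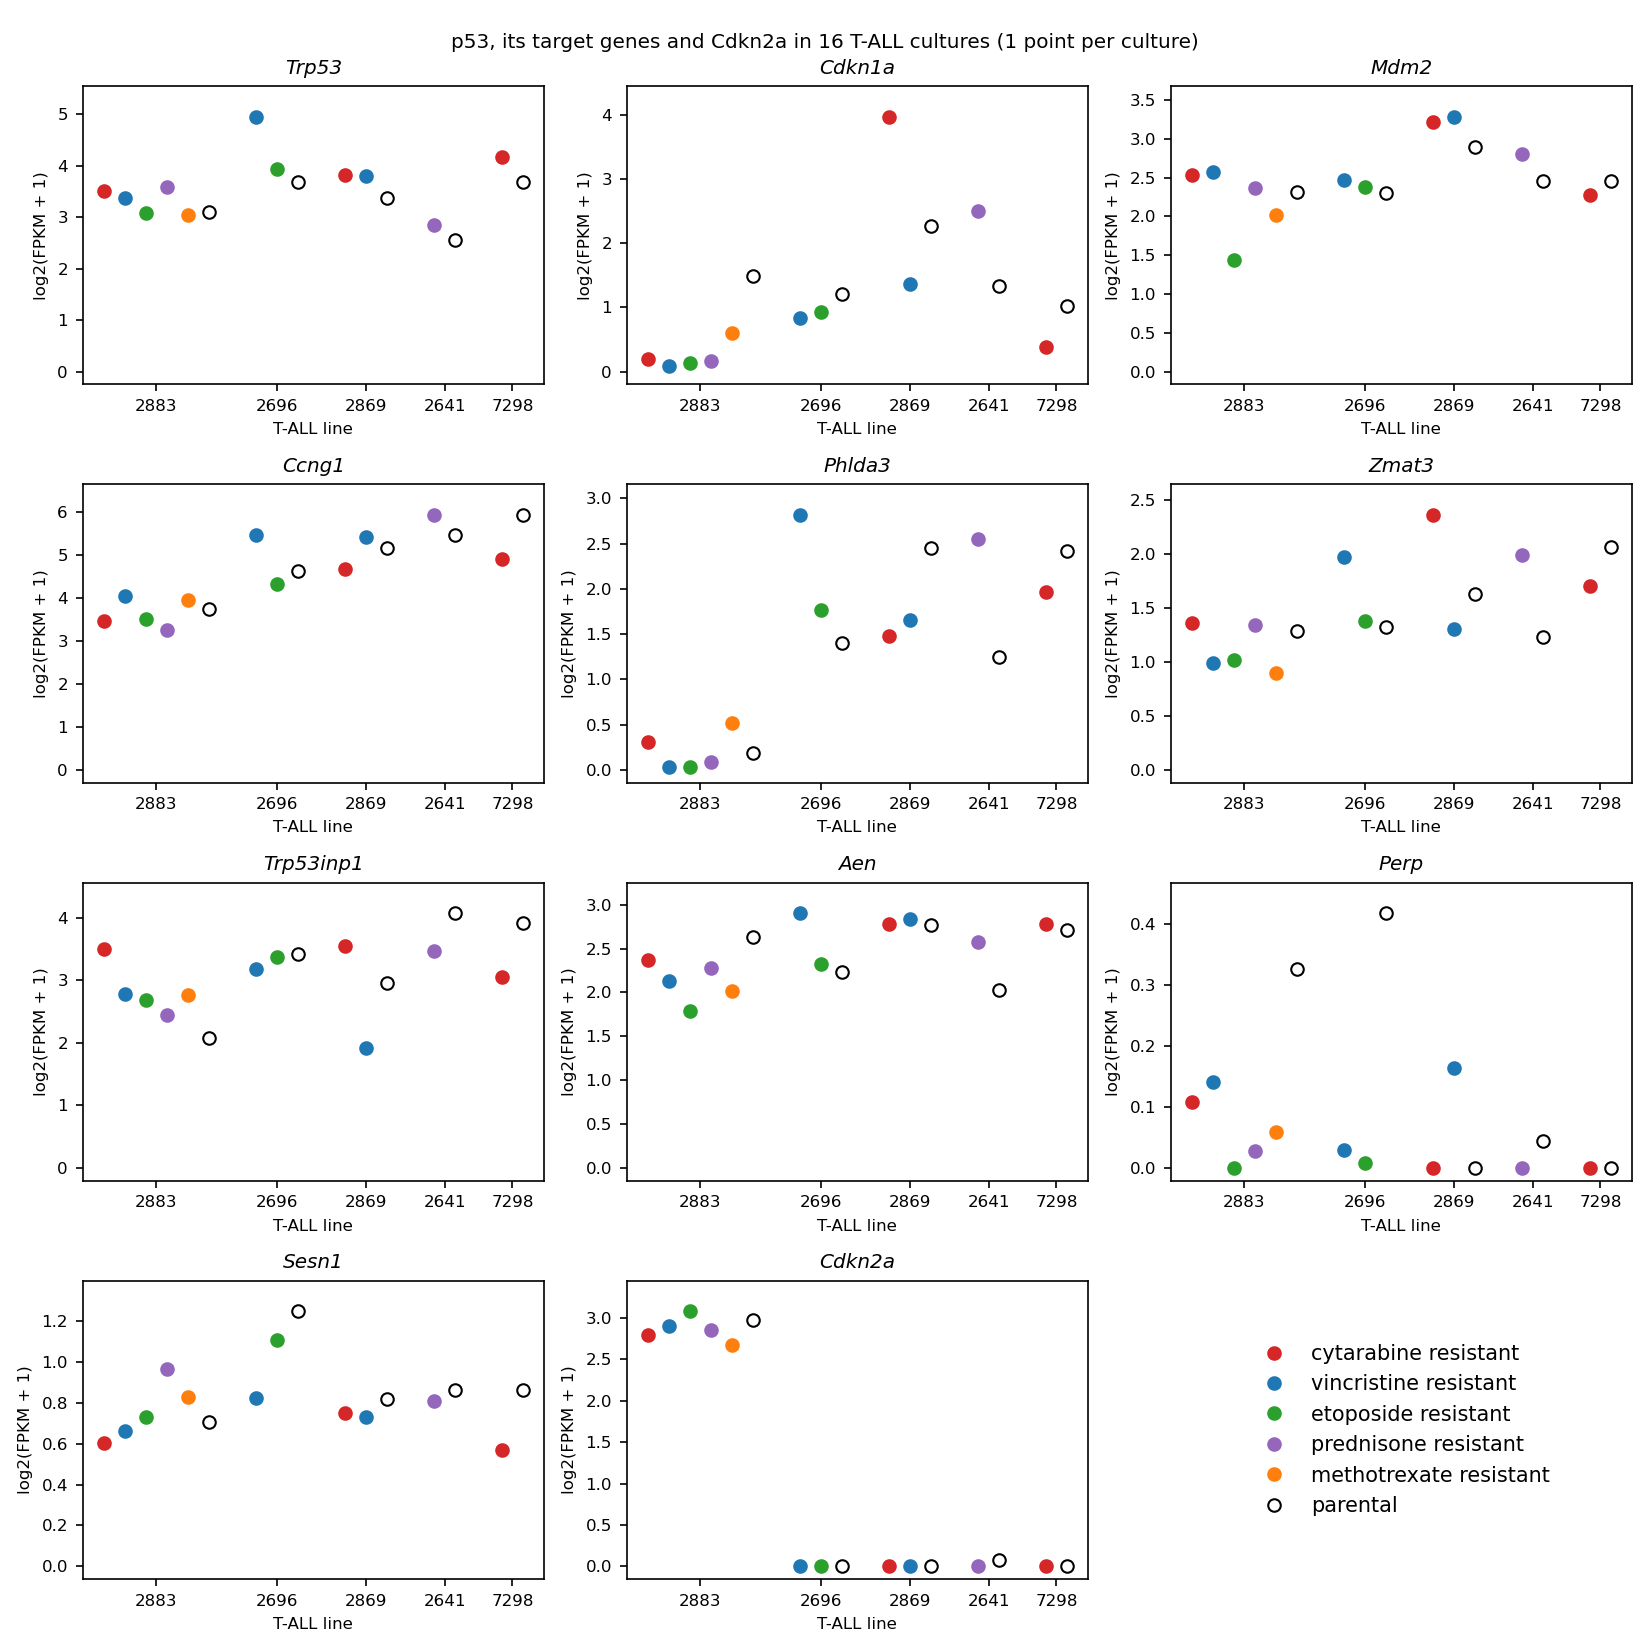
Level of each gene, as log2(FPKM + 1), in the 16 cultures, grouped by line; filled points are resistant derivatives coloured by drug, open points parental cultures, 1 library each. Axes start just under 0 and differ between genes. Cdkn2a is high in the 6 libraries of line 2883, where all Ccng1 and Phlda3 points lie under those of the other 4 lines.

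Of the 10 genes 9 could be tested, and 3 of them differed between lines. Ccng1, Trp53 and Phlda3 differed among the 5 lines in a moderated F-test (limma, model of line and drug, Benjamini-Hochberg adjustment over 9309 genes), a call that 20.5% of all tested genes also met. The adjusted p was 0.00235 for Ccng1, 0.0116 for Trp53 and 0.0140 for Phlda3. The highest and lowest line terms lay 2.08, 1.53 and 2.23 apart on the log2 scale for Ccng1, Trp53 and Phlda3. Cdkn1a (adjusted p = 0.0677, range of line terms 2.15) and Mdm2 (0.0826, 0.79) missed the threshold, and adjusted p was 0.204 to 0.261 for Trp53inp1, Sesn1, Aen and Zmat3. All 3 calls held without any single library and were lost when the 6 libraries of line 2883 were left out, with adjusted p of 0.292 for Ccng1, 0.142 for Trp53 and 0.625 for Phlda3. Mdm2 passed without either of the 2 etoposide-resistant libraries (lowest adjusted p = 0.0334), and both Mdm2 (0.0465) and Cdkn1a (0.0372) passed with 1 resistance term in place of the drug terms. Cdkn1a also passed without the parental library of line 2883 (0.0416), with a pseudocount of 0.1 (0.0468) and on log2(CPM + 1) (0.0428), and Trp53inp1 passed without line 7298 (0.0487). Perp, at 0 to 53 reads per library, fell under the filter of 1 FPKM in 2 libraries and was not tested. Sesn1 met it in 2 libraries, Cdkn1a in 8 and Phlda3 in 10. Those 10 are the libraries outside line 2883, so Phlda3 entered the test only through the lines where it is high, and its call is given as a description. With no filter its adjusted p was 0.0269.

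Ccng1 encodes cyclin G1, a p53 target that acts back on Mdm2 through the phosphatase PP2A (chromosome 11, 40748552 to 40755312, mm10). In line 2883 its level was 10.0 FPKM in cytarabine-, 15.4 in vincristine-, 10.4 in etoposide-, 8.55 in prednisone- and 14.5 in methotrexate-resistant cells, against 12.4 FPKM in the parental culture. In the other 4 lines it was 19.0 to 59.8 FPKM (median 38.1, n = 10). The 2 ranges do not overlap, and the same holds for 0.44% of tested genes in this direction. Among them are 2 of the 9 tested genes of the list, Ccng1 and Phlda3. Phlda3 met the filter only outside line 2883, so it is named here as a description and not as a second case. Line 2883 lay below line 2641 by a log2 difference of -2.08 ± 0.27 (SE; adjusted p over genes and 10 line pairs = 0.00288, limma). Against line 7298 the difference was -1.95 ± 0.27 (0.00377), and against line 2869 it was -1.39 ± 0.23 (0.00898). These 3 calls held in every alternative that could be run for them, with adjusted p up to 0.0481. Against line 2696 the difference was -1.06 ± 0.23 (0.0267), a call lost on leaving out any 1 of 6 libraries: vincristine- or etoposide-resistant cells of line 2883, any library of line 2696, or cytarabine-resistant cells of line 2869 (adjusted p up to 0.111, difference -1.17 to -0.87). Over all genes and pairs, 6.62% of contrasts were called.

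Phlda3, which encodes a repressor of the kinase Akt, was close to absent from line 2883 (chromosome 1, 135766119 to 135769137). It had 12 reads in cytarabine-, 1 in vincristine-, 1 in etoposide-, 3 in prednisone- and 18 in methotrexate-resistant cells of this line, against 5 reads in the parental culture. The other 10 libraries held 55 to 303 reads. In FPKM, where the filter was met only outside line 2883, this was 0.025 to 0.426 (median 0.0995) in line 2883 and 1.37 to 6.06 (median 2.66) in the other lines, with no overlap. Log2 differences were -2.23 ± 0.45 from line 7298, -1.92 ± 0.38 from line 2696 and -1.80 ± 0.38 from line 2869 (SE; adjusted p = 0.0204, 0.0192 and 0.0252, limma), and -1.64 ± 0.45 from line 2641 (0.0656, not called). The call against line 7298 was lost without either library of that line, with adjusted p of 0.0685 without the cytarabine-resistant and 0.143 without the parental one (differences -2.45 and -1.97). Against line 2696 it was lost without vincristine- or etoposide-resistant cells of either line (adjusted p 0.0558 to 0.0689, difference -2.0 to -1.43). Against line 2869 it was lost without vincristine-resistant cells of line 2883, cytarabine-resistant or parental cells of line 2869 (0.0531 to 0.0996, difference -1.97 to -1.34). Taking off the median of chromosome 1 in each library left the differences at -2.28, -1.95 and -1.89 in the order given.

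Within the other lines Phlda3 went in both directions. Vincristine-resistant cells had 303 reads in line 2696, against 65 in its parental culture (3.69 times, interval 2.82 to 4.90), and 112 in line 2869, against 183 (0.48 times, 0.38 to 0.61). Cytarabine-resistant cells had 91 reads in line 2869, against 183 (0.40 times), and 155 in line 7298, against 166 (0.67 times). Prednisone-resistant cells of line 2641 had 278 reads, against 55 in the parental culture (3.54 times, 2.65 to 4.82). The same drug thus went with a higher level in 1 line and a lower level in another, each from 1 library per culture.

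Trp53 itself was lowest in line 2641 (chromosome 11, 69580359 to 69591874). It had 6.15 FPKM in prednisone-resistant and 4.86 FPKM in parental cells of that line. Line 2883 followed without overlap, at 10.4, 9.32, 7.42, 11.1 and 7.28 FPKM in cytarabine-, vincristine-, etoposide-, prednisone- and methotrexate-resistant cells and 7.62 FPKM in parental cells. For 9.85% of tested genes line 2641 likewise lay wholly below line 2883. Lines 2869 (13.2, 12.9 and, parental, 9.39 FPKM), 2696 (29.9, 14.2 and, parental, 11.9) and 7298 (17.02 and, parental, 11.8) overlapped each other. The highest single value, 29.9 FPKM from 5716 reads, belonged to vincristine-resistant cells of line 2696. Line 2883 lay under line 2696 by -0.98 ± 0.18 (SE; adjusted p = 0.0142, limma), in every alternative run. Line 2696 lay above line 2641 by 1.53 ± 0.25 (0.00814), without any single library too, though not without the libraries of line 2883 (1.36, adjusted p = 0.128). Line 2641 lay under line 7298 by -1.22 ± 0.26 (0.0273), a call lost on leaving out any 1 of 8 libraries (adjusted p up to 0.123, difference -1.45 to -1.11) or all of line 2883 (0.195). Those 8 were the 4 libraries of these 2 lines, cytarabine- and prednisone-resistant cells of line 2883, and cytarabine-resistant and parental cells of line 2869.

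The Trp53 count is uncertain in 1 respect. Trp53-ps, a processed pseudogene on chromosome 17, followed Trp53 over the 16 libraries (Pearson r = 0.96, a description over libraries that share lines), with 52 to 296 reads in resistant and 41 to 113 in parental libraries, against 1179 to 5716 and 743 to 1797 for Trp53. Reads of the 2 copies may have been split in counting, which the sources used here do not describe.

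Trp53 was higher in resistant than in parental cells in 9 of 11 derivatives by the counting interval, in none lower, and in 2 the interval held 1. By sign alone, however small the difference, Trp53 was higher in 9 and lower in 2. A higher value by sign in at least 9 of 11 derivatives was shared by 11.4% of tested genes. The share by the interval was not taken. The ratio was 2.52 (interval 2.39 to 2.66) in vincristine-resistant cells of line 2696 and 1.19 to 1.45 in the other 8. Etoposide- and methotrexate-resistant cells of line 2883 stood at 0.974 (0.896 to 1.06) and 0.956 (0.879 to 1.04) of their parental culture. In the fit with line and drug the log2 difference was 0.61 ± 0.18 for vincristine (unadjusted p = 0.00783), 0.51 ± 0.18 for cytarabine (0.0186) and 0.49 ± 0.21 for prednisone (0.0486), and over all 11 derivatives it was 0.43 ± 0.16 (0.0194; SE, limma). None passed after adjustment over all genes (adjusted p 0.230, 0.404, 0.544 and 0.456 in that order). An unadjusted p under 0.05 with a higher level was met by 5.94% of genes for vincristine, 5.92% for cytarabine, 4.43% for prednisone and 3.8% over all derivatives.

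The median level of chromosome 11, over its 841 tested genes, moved with some of these values. It was 0.389 higher on the log2 scale in vincristine-resistant than in parental cells of line 2696, and 0.245 higher in those of line 2869, against -0.122 to 0.0669 in the other 9 derivatives. Both Trp53 and Ccng1 lie on that chromosome, and Ccng1 was at 1.82 (1.73 to 1.92) and 1.21 (1.16 to 1.27) times the parental level in these same 2 derivatives. With the chromosome median taken off, the vincristine difference was 0.40 for Trp53 and 0.26 for Ccng1, against 0.61 and 0.47 as deposited. In parental and prednisone-resistant cells of line 2641 the chromosome median stood 0.211 and 0.223 above the mean of all libraries while Trp53 was at its lowest. The 3 line calls for Ccng1, Trp53 and Phlda3 stood after the same subtraction (adjusted p 0.0024, 0.00288 and 0.0136).

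**Figure D2:**
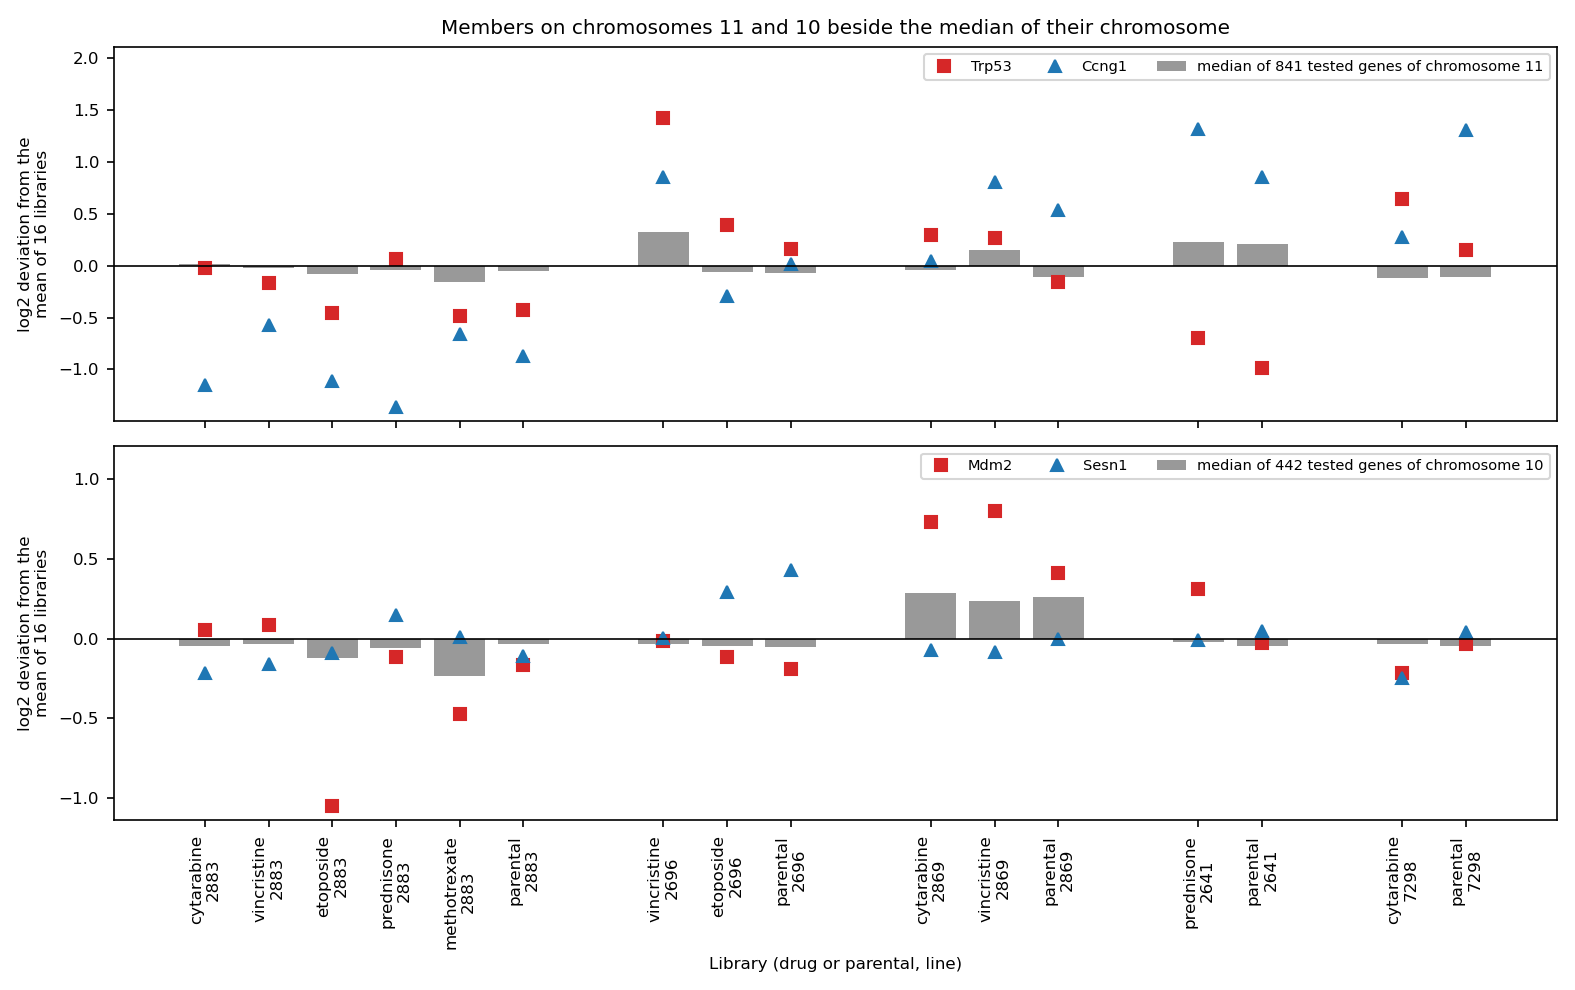
Deviation of Trp53 and Ccng1 (upper panel) and of Mdm2 and Sesn1 (lower panel) from their mean over 16 libraries, in log2(FPKM + 1); grey bars give the median deviation of the tested genes on the same chromosome, 841 on chromosome 11 and 442 on chromosome 10. The chromosome 11 bar stands at 0.323 in vincristine-resistant cells of line 2696 and the chromosome 10 bars at 0.235 to 0.285 in line 2869, where Mdm2 is highest.

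Mdm2, the ligase that holds p53 low, was highest in line 2869 (chromosome 10, 117688875 to 117710759). There it had 8.30 FPKM in cytarabine-resistant, 8.76 in vincristine-resistant and 6.46 in parental cells. In the other 4 lines it was 1.72 to 5.96 FPKM. The ranges do not overlap, and 3.16% of tested genes separate line 2869 from the rest in this direction. Line 2883 lay under line 2869 by -0.79 ± 0.19 (SE; adjusted p = 0.0431, limma). This call was lost in 13 of 16 fits that left out 1 library (adjusted p up to 0.133), with a pseudocount of 0.1 (0.0564), with no filter (0.0578) and with the median of chromosome 10 taken off (difference -0.48, adjusted p = 0.165). That median stood 0.235 to 0.285 above the mean of all libraries in the 3 libraries of line 2869, against -0.234 to -0.0219 in the other 13. Etoposide-resistant cells of line 2883 had the lowest Mdm2 value, 536 reads against 1060 in parental cells, or 0.431 times (0.387 to 0.478). Etoposide-resistant cells of line 2696 stood at 1.07 times (0.988 to 1.15), so the fitted etoposide difference of -0.42 ± 0.23 (unadjusted p = 0.0989) rested on line 2883 and was 0.11 without that library. Mdm2 was above parental in 6 of 11 derivatives by the interval and below in 3, at 0.431 to 1.36 times. The share of all genes with such counts was not taken.

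Cdkn1a, which encodes the cyclin-dependent kinase inhibitor p21 and is the main arrest gene of the pathway, had the widest range of ratios to parental cells among the 9 tested genes (chromosome 17, 29090976 to 29100728). In line 2883 it had 25 reads in cytarabine-, 8 in vincristine-, 13 in etoposide-, 20 in prednisone- and 71 in methotrexate-resistant cells, against 213 in parental cells. In FPKM these were 0.150, 0.0569, 0.0942, 0.120 and 0.518, against 1.80 in parental cells. All 5 derivatives were lower, whatever the drug: 32.0-fold (interval of the ratio 0.0133 to 0.0627) after vincristine, 19.2-fold (0.0272 to 0.0908) after etoposide, 15.1-fold (0.0397 to 0.105) after prednisone, 12.1-fold (0.0525 to 0.126) after cytarabine and 3.48-fold (0.217 to 0.378) after methotrexate. A log2 difference of -1 or below in at least 4 of these 5 derivatives was met by Cdkn1a and by 0.29% of tested genes. That rule mirrors the pattern of Cdkn1a itself, with methotrexate at -0.88, so the share is a description. A gene below 1 FPKM in the parental culture, as Phlda3 (0.139) and Sesn1 (0.634) were, cannot meet it. The 5 derivatives share 1 parental library, which carried the highest Cdkn1a count of its line, so they are not independent of it.

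Outside line 2883 Cdkn1a went both ways. It was higher in cytarabine-resistant cells of line 2869, with 2437 reads against 503 in parental cells (3.86 times, interval 3.50 to 4.26), the highest level of the series at 14.7 FPKM. Vincristine-resistant cells of the same line had 263 reads (0.41 times, 0.35 to 0.48). Prednisone-resistant cells of line 2641 had 859 reads, against 199 in parental cells (3.03 times, 2.59 to 3.55). In line 2696 vincristine- and etoposide-resistant cells had 126 and 151 reads, against 169 (0.59 and 0.68 times), and cytarabine-resistant cells of line 7298 had 52, against 126 (0.29 times). In all, 9 of 11 derivatives were lower than their parental culture and 2 were higher, each with an interval clear of 1. By sign alone, a lower value in at least 9 of 11 was shared by 15.6% of tested genes, and the share by the interval was not taken. Cytarabine-resistant cells were thus at 0.0829, 0.295 and 3.86 times the parental level in lines 2883, 7298 and 2869. Line 2883 as a whole lay under line 2869 by -2.12 ± 0.52 (SE; adjusted p = 0.0446, limma), a call lost in 14 of 16 fits that left out 1 library (adjusted p up to 0.133), with no filter (0.0687) and without line 7298 (0.0542). A provisional gene model on the other strand overlaps Cdkn1a, and whether the counting used strand is not given in the sources used here.

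**Figure D3:**
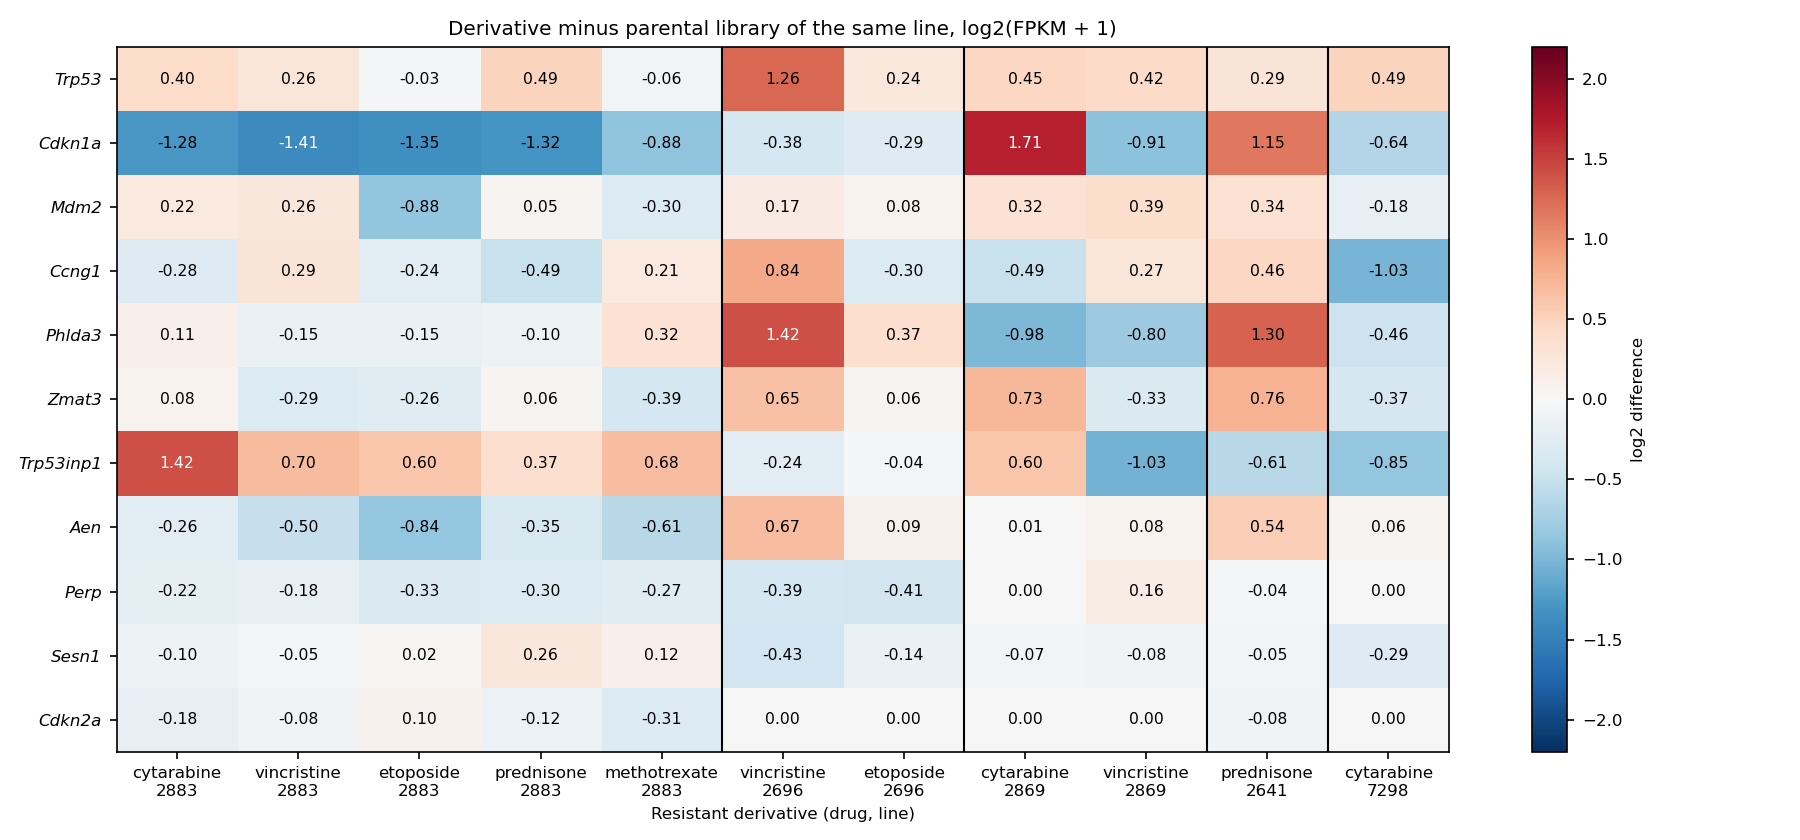
Difference in log2(FPKM + 1) between each of 11 resistant derivatives and the parental library of its line, for the 10 genes and Cdkn2a; black lines separate the lines, red is higher and blue lower in the derivative. The Cdkn1a row is between -1.41 and -0.88 in the 5 derivatives of line 2883 and at 1.71 and 1.15 in cytarabine-resistant cells of line 2869 and prednisone-resistant cells of line 2641.

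In line 2883 Trp53inp1 was above parental and Aen below it in every derivative. Trp53inp1, a stress-induced p53 cofactor on chromosome 4, had 10.3, 5.84, 5.40, 4.44 and 5.78 FPKM in cytarabine-, vincristine-, etoposide-, prednisone- and methotrexate-resistant cells, against 3.22 FPKM in parental cells. All 5 were higher, at 1.38 to 3.20 times, which holds for 11.6% of tested genes. In the other lines it was above parental in cytarabine-resistant cells of line 2869 (1.60 times), and below in 4 of the other 5 derivatives, down to 0.41 (0.38 to 0.45) in vincristine-resistant cells of line 2869. Aen, a nuclease that takes part in p53-dependent apoptosis (chromosome 7), had 4.18, 3.37, 2.45, 3.85 and 3.06 FPKM in the same 5 derivatives, against 5.19 FPKM in parental cells. All 5 were lower, at 0.472 to 0.806 times, which holds for 15.9% of tested genes. Elsewhere Aen was higher in vincristine-resistant cells of line 2696 (1.76 times, 1.61 to 1.92) and prednisone-resistant cells of line 2641 (1.60, 1.46 to 1.76), with intervals that held 1 in the other 4.

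Zmat3 encodes a zinc finger protein that binds RNA (chromosome 3). It was higher in 3 derivatives, at 2.21 times (2.0 to 2.43) in prednisone-resistant cells of line 2641, 1.98 (1.83 to 2.14) in cytarabine-resistant cells of line 2869 and 1.94 (1.77 to 2.14) in vincristine-resistant cells of line 2696. It was lower in 5 derivatives, down to 0.597 (0.522 to 0.682) in methotrexate-resistant cells of line 2883. Sesn1, a stress gene that restrains mTORC1 (chromosome 10), was lower in 7 of 11 derivatives, at 0.559 to 0.917 times. It was higher in prednisone- and methotrexate-resistant cells of line 2883 (1.5 and 1.22 times). The share of all genes with such counts was not taken. The highest Sesn1 level, 1.37 FPKM, was in parental cells of line 2696, and a provisional gene model overlaps this gene as well. Perp, a membrane protein gene of p53-dependent death (chromosome 10), was at or near 0 reads in most libraries. Its 3 highest counts were 53 reads in parental cells of line 2696, 37 in parental cells of line 2883 and 25 in vincristine-resistant cells of line 2869. The derivatives of line 2696 had 4 and 1 reads. Those of line 2883 had 16, 18, 0, 4 and 7 reads after cytarabine, vincristine, etoposide, prednisone and methotrexate. With 3 reads set in place of the 0 after etoposide, the level is 14.5-fold lower than that of the parental 37 reads, their counting error left out.

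Across drugs, no member of the list differed between resistant and parental cells once adjusted over all tested genes (limma, 9309 genes). The count was 0 of 9 for cytarabine, vincristine, etoposide and prednisone and for all 11 derivatives together, where 0%, 0%, 0%, 0.0215% and 0% of all genes were called. At an unadjusted p under 0.05 only Trp53 was below it, for cytarabine, vincristine, prednisone and all derivatives, and no target gene was. Lower levels at that p made up 5.22% of genes for cytarabine, 7.91% for vincristine, 4.74% for prednisone and 5.94% over all derivatives, and for etoposide 3.59% were higher and 5.3% lower. No test of counts was run, because too few values were whole reads. The median log2 difference of the 9 genes was 0.19 for cytarabine, 0.13 for vincristine, -0.16 for etoposide, 0.22 for prednisone and 0.05 over all derivatives, beside 0.02, -0.02, -0.03, 0.00 and -0.00 over all genes. Among targets with an unadjusted p under 0.1, Ccng1 differed by -0.46 ± 0.23 for cytarabine and 0.47 ± 0.23 for vincristine. Sesn1 differed by -0.21 ± 0.11 and -0.22 ± 0.11 for the same drugs. It met the filter only in parental and etoposide-resistant cells of line 2696, so its values are given as a description. For the 4 drugs the rest lay between -0.86 and 0.47 with SE of 0.13 to 0.62 and none was called. The comparisons share parental libraries and are not independent.

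Derivative by derivative, 12 of 99 pairs of a tested member and a derivative were past a log2 difference of 1 from parental, beside 3.61% of all gene and derivative pairs. With a pseudocount of 0.1 it was 21 of 99, beside 9.16%. In line 2883 the count was 2 of 9 after cytarabine (4.94% of all genes), and 1 each after vincristine (4.17%), etoposide (6.55%) and prednisone (2.92%). In line 2696 it was 2 after vincristine (4.86%) and 0 after etoposide (2.13%), and in line 2869 it was 1 after cytarabine (3.13%) and 1 after vincristine (4.31%). It was 2 in prednisone-resistant cells of line 2641 (2.29%) and 1 in cytarabine-resistant cells of line 7298 (1.69%). Cdkn1a made up 6 of the 12, Phlda3 and Trp53inp1 2 each, and Trp53 and Ccng1 1 each. Methotrexate-resistant cells of line 2883, the only culture of their drug, had 0 of 9 past that mark (2.76% of all genes), with Cdkn1a nearest at -0.88, and 2 of 9 with a pseudocount of 0.1 (8.23%). Prednisone-resistant cells of line 2641 had 7 of 9 members above and 2 below parental by the interval, beside 31.2% and 35.3% of all tested genes, with a median log2 difference of 0.46 against -0.01 over all genes. Vincristine-resistant cells of line 2696 had 6 above and 3 below, beside 35.9% and 34.1%, with medians of 0.65 and 0.00. Cytarabine-resistant cells of line 7298 had 1 above and 7 below, beside 31.2% and 30.6%, with medians of -0.37 and -0.00. Etoposide-resistant cells of line 2883 had 1 above and 5 below, beside 33.8% and 39.9%, with medians of -0.24 and -0.03. Counts of the other derivatives follow, with those of all 9309 genes in brackets. Line 2883 had 3 above and 4 below after cytarabine (3456 and 3358) and 4 and 3 after vincristine (2951 and 3171). It had 3 and 3 after prednisone (3390 and 2998) and 4 and 4 after methotrexate (2298 and 4013). Line 2869 had 5 and 3 after cytarabine (3646 and 2928) and 3 and 5 after vincristine (2937 and 3674). Line 2696 had 2 and 3 after etoposide (2768 and 3015). Each of these rests on 1 library against 1 and carries no test.

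A wider list of 43 p53 pathway genes had 37 rows, 27 of them tested. Among the 5 lines 6 of the 27 differed (limma F-test, beside 20.5% of all genes). They were Cdkn2a (adjusted p = 2.7e-07), the 14-3-3 sigma gene Sfn (0.00754), the mitotic gene Ckap2 (0.0260), the antiproliferative gene Btg2 (0.0277), the death gene Ei24 (0.0363) and the apoptosome gene Apaf1 (0.0478). Cdkn2a met the filter only in the 6 libraries of line 2883, where it is high, so its call is given as a description. Sfn was highest in line 2696, at 7.23 to 13.6 FPKM, against 1.78 to 6.86 FPKM in the other lines. The share of tested genes that separate line 2696 in this way was not taken, and for line 2869 it was 3.16%. The calls for Ckap2, Btg2, Ei24 and Apaf1 were lost in 6, 6, 12 and 14 of 16 fits without 1 library, with adjusted p up to 0.0748, 0.0818, 0.0842 and 0.136. Without line 2883 these 4 calls (adjusted p 0.0852 to 0.374) and that for Sfn (0.0656) were lost, and Cdkn2a fell under the filter. With 1 resistance term Btg2 (0.0623) and Ei24 were lost, and the range of Ei24 line terms was 0.72 (adjusted p = 0.396), against 1.15. Ckap2 was also lost without line 7298 (0.0508), Ei24 with no filter (0.0514), and Apaf1 with median-of-ratios scaling (0.0523) and with chromosome medians taken off (0.13).

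Of the wider list 0 of 27 differed between resistant and parental cells in any of the 5 comparisons, at adjusted p under the threshold. The unadjusted p was under 0.05 for 3 higher and 3 lower genes with cytarabine, 2 and 2 with vincristine, 1 and 1 with etoposide, 2 and 0 with prednisone, and 3 and 2 over all derivatives. Of all tested genes, 5.92% were higher and 5.22% lower at that p with cytarabine, and 5.94% and 7.91% with vincristine. The shares were 3.59% and 5.3% with etoposide, 4.43% and 4.74% with prednisone, and 3.8% and 5.94% over all derivatives. With cytarabine the 6 were Gtse1, a regulator of p53 in G2 (0.55 ± 0.16), Sfn (0.54 ± 0.22), the deubiquitinase gene Usp7 (0.47 ± 0.19), Ei24 (-0.66 ± 0.17), the small ribosomal protein gene Rps27l (-0.57 ± 0.16) and the mTORC1 inhibitor gene Ddit4 (-2.01 ± 0.83). Their adjusted p was 0.404 to 0.436 (limma). With vincristine the smallest p were those of Ddit4 (-2.08 ± 0.84), Mdm4, an inhibitor of p53 related to Mdm2 (-0.30 ± 0.13), Sesn2 (0.51 ± 0.22) and the phosphatase gene Ppm1d (0.27 ± 0.12). With etoposide they were those of Rps27l (-0.52 ± 0.19) and Sesn2 (0.67 ± 0.26), and with prednisone those of Sfn (0.80 ± 0.26) and Gtse1 (0.50 ± 0.19). Over all derivatives Sfn differed by 0.53 ± 0.16 (adjusted p = 0.442, limma), the smallest p of the list. It was above parental in 8 of 11 derivatives by the interval, below in none, and the share of all genes with such a count was not taken. In the single derivatives 2298 to 3646 of 9309 tested genes were higher by the interval.

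**Figure D4:**
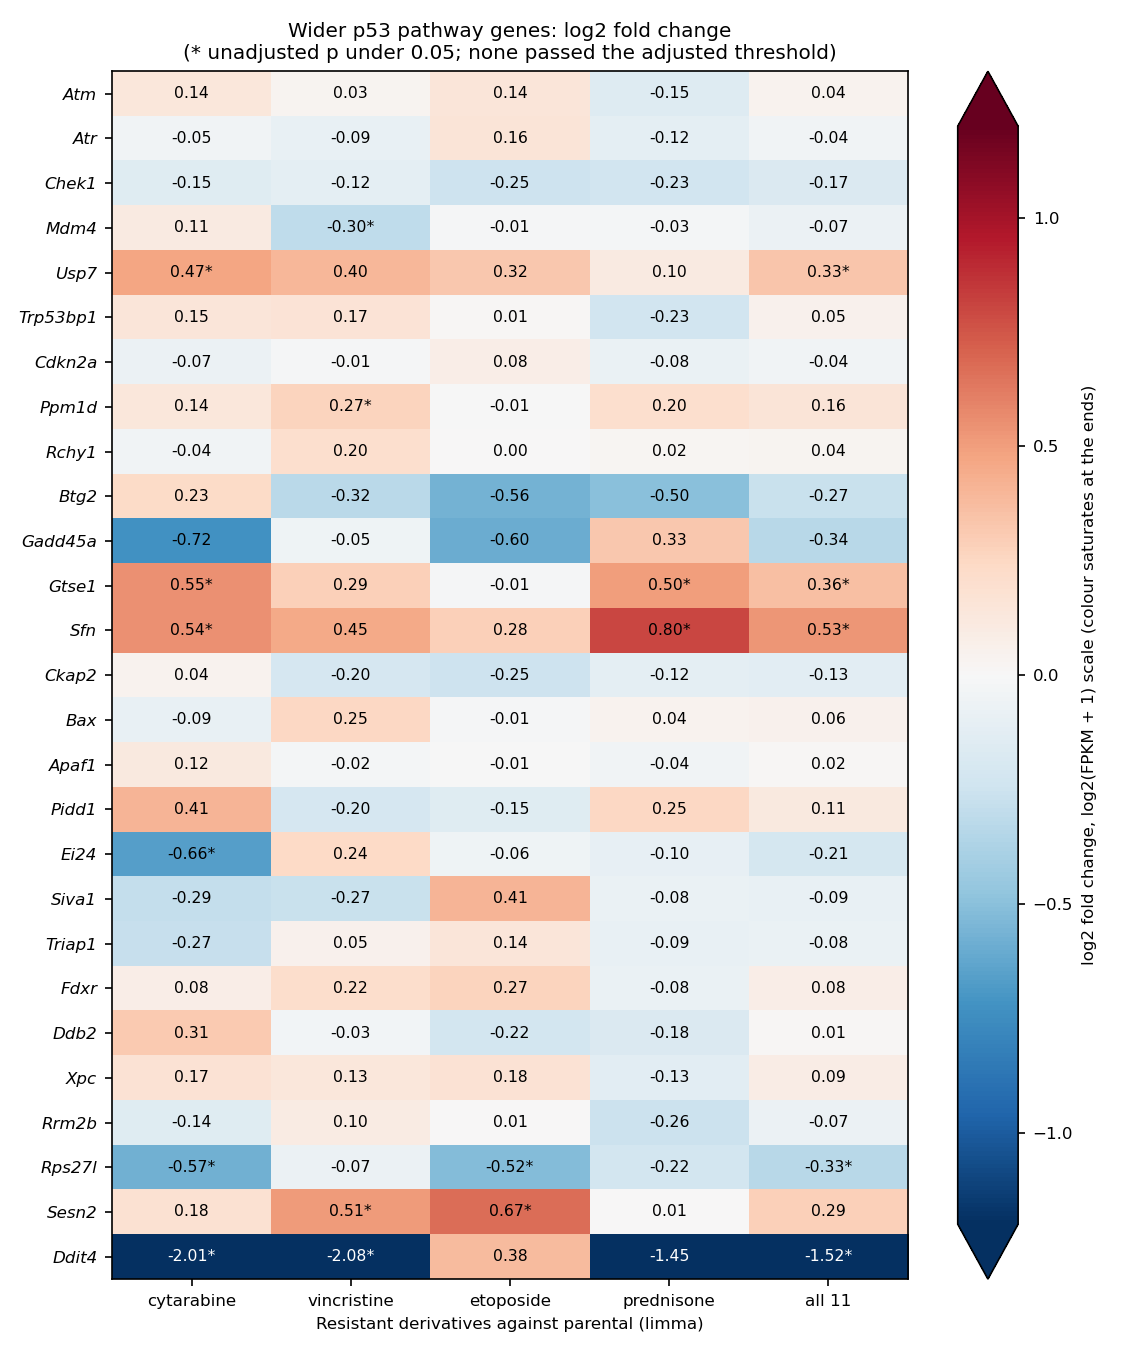
Fitted log2 fold change, resistant against parental, of the 27 tested genes of the wider p53 list in 5 comparisons; red is higher and blue lower in resistant cells, a star marks an unadjusted p under 0.05 and the colour saturates at the ends. None of the 27 passed after adjustment, and Ddit4 has the largest differences, -2.01 and -2.08 for cytarabine and vincristine.

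Likeness of pattern was measured as Pearson r of log2(FPKM + 1) over the 16 libraries against 8010 tested genes, leaving out predicted models; the libraries share lines, so r is a description. The 3 genes most like Trp53 were Trp53-ps (0.96), Btg3 (0.892) and Tnfsf10 (0.891), and with the mean of each line taken off Sf3b2 (0.941), Csnk1d (0.936) and Snrnp200 (0.935). The 3 most like Cdkn1a were Lrmp (0.837), Zfp367 (0.83) and the wider-list gene Pidd1 (0.826), and within lines Ctxn1 (0.897), Simc1 (0.855) and AA474408 (0.823). Ccng1 and Phlda3 were each among the 3 genes most like the other (0.883), with Tmem199 on chromosome 11 first for both (0.891 and 0.935). Within lines their r was 0.629, and the genes most like them were Psmb3, Psmb5 and the p53 target Bax for Ccng1 (0.859 to 0.863) and Cct8, Elovl5 and Scoc for Phlda3 (0.801 to 0.858). Within lines Cdkn1a went most with Zmat3 among the members (0.685) and little with Mdm2 (0.114), Phlda3 (0.081) or Ccng1 (-0.094), and Trp53 went with Aen (0.631) and against Sesn1 (-0.64).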

How the data were processed

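RNA of 16 mouse T-ALL cultures was profiled on stranded mRNA libraries, per the labels. The authors deposited 1 table of FPKM values, made with cutadapt, STAR and Partek on mm10 per the submitters' processing notes; their versions, the annotation and the counting are not stated there. In the deposited FPKM the length is end minus start in all 13474 rows, and 0.1 read had been added per gene. Reads were recovered as FPKM times length times depth; only 70.6% to 75.7% of values between 0.5 and 200 reads lay within 0.05 of a whole number, so counts were not tested. No pair of libraries agreed within sampling noise (lowest mean chi-square per gene 51.4).

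Tests used limma 3.58.1 in R 4.3.3 (lmFit, eBayes with trend) on log2(FPKM + 1); 9309 genes reached 1 FPKM in 2 or more libraries and were kept, with terms for line and drug (6 residual degrees of freedom) or line and resistance (10), two-sided, Benjamini-Hochberg at 0.05; the script was tested on simulated data. Since each culture is 1 library, p-values measure the spread between cultures after these terms. The line pairs a derivative with its parental culture, per the labels: the own parental library correlated best in 11 of 11 derivatives (r 0.942 to 0.981). A ratio against 0 reads uses 3 reads in their place and leaves out the counting error of the other library, so it is not an interval limit. Promoter sequences are RefSeq, GRCm38.p6. Positions of genes are those of the deposited table and match GENCODE vM21.

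The members, lists and tests were chosen with earlier results of these data known. All 10 members are described; of the wider list the genes past the threshold are named, or up to 3 per direction with the smallest p, and, for likeness, the 3 genes with the highest r for Trp53, Cdkn1a and the members with the widest line calls. Alternatives were median-of-ratios scaling, log2(CPM + 1), no filter on low values, no line block, a smaller pseudocount (0.1), 1 resistance term, and leaving out line 7298 or each library; chosen after seeing the data were leaving out line 2883 and taking off chromosome medians. Methotrexate, with 1 derivative, had no test. Pmaip1, Plk2, Tnfrsf10b, Trp53cor1, Trp63 and Trp73 were not analysed here.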

Additional observations from a re-analysis of the deposited data

Results flagged for a closer look

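Parental Mdm2 had 1 value far from the others. The parental library of line 2869 stood at 6.46 FPKM, and its gap to the next of the 5 parental libraries was 0.728 of their whole log2 range. The median of chromosome 10 was also raised in that library, by 0.258 against the mean of all libraries; its part in the result was not tested.

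Parental Sesn1 had the same kind of outlier. The parental library of line 2696 stood at 1.37 FPKM, with a gap of 0.713 of the range. The 2 outliers came from 10 groups of parental values examined, and chance flags about 1 in 20.

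Phlda3 lay on opposite sides of the parental level in 2 lines. Both derivatives of line 2696 were higher than their parental culture (median ratio 2.58) and both derivatives of line 2869 were lower (0.438). The difference between the lines was not tested, and each line has 1 parental library.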

How the results depend on the processing

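The parental libraries are 5 and each drug has 1 to 3, so a missed call limits a change only to the interval its SE gives. The count of called members stayed at 0 for each drug comparison and for all derivatives in every alternative run. Among lines it was 3, against 5 with 1 resistance term, 0 without line 2883, 4 each with a pseudocount of 0.1, on log2(CPM + 1) and without line 7298, and 3 to 4 without 1 library. For the 10 line pairs it was 12, and 7 to 12 without 1 library. Leaving out line 2883 removes 4 pairs and with them 10 of the 12. In the 6 pairs left the count was 0, against 2 with all libraries. The line and pair counts include Phlda3, which met the filter only outside line 2883, so its calls are a description. The pseudocount of 0.1 gave 21 in place of 12 pairs of member and derivative past 1 (9.16% in place of 3.61% of all pairs), and 2 in place of 0 for methotrexate (8.23% in place of 2.76%). The cause of these shifts was not tested.

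Over all genes the vincristine count was 0, against 3 with no line block (no pairing), 2 without line 7298, 2 without line 2883 and 0 to 9 without 1 library. The prednisone count was 2, against 0 with no line block, 1 with no filter, 1 with median-of-ratios scaling, 1 on log2(CPM + 1), 0 without line 7298, 0 without line 2883 and 0 to 4 without 1 library. Without 1 library the etoposide count was 0 to 5. Over all derivatives the count was 0, against 2 without line 7298 and 0 to 2 without 1 library. The line count was 1905, against 527 without line 2883 and 1263 to 1900 without 1 library. The line pair count was 6165 over 10 pairs, and 3702 to 6147 without 1 library. In the 6 pairs left without line 2883 it was 1241, against 3596 in the same pairs with all libraries, and in the 6 left without line 7298 it was 3595, against 3826.

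Signs turned for uncalled values only. Among members with an unadjusted p of 0.1 or more (limma), some alternative turned 2 of 6 signs for cytarabine and 3 of 6 for vincristine. The like counts were 4 of 8 for etoposide, 5 of 8 for prednisone and 6 of 8 over all derivatives. The turns that follow are of members under that p and of the wider-list genes with the smallest p. With no line block, and so no pairing, Ccng1 was -0.00835 for vincristine, Trp53 -0.065 for prednisone and Fdxr -0.027 for etoposide. For etoposide, Mdm2 was 0.10 without line 2883 and -0.87 to 0.11 without 1 library, and Fdxr -0.012 to 0.51 without 1 library. The block changed no call of a member in the drug comparisons.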

Other observations

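Fas, which encodes a death receptor of T cells and is a p53 target, lay under the filter in FPKM and was in no test; it was singled out after its values were seen. In line 2883 it had 44, 22, 0, 15 and 28 reads in cytarabine-, vincristine-, etoposide-, prednisone- and methotrexate-resistant cells, against 44 in parental cells. Vincristine- and etoposide-resistant cells of line 2696 had 20 and 40 reads, against 215 in parental cells (0.0736 and 0.142 times). Cytarabine-resistant cells of line 7298 had 7, against 40 (0.125 times). By the interval 8 of 11 derivatives were lower, 1 more had 0 reads (etoposide, line 2883, at least 17.2-fold lower), and cytarabine-resistant cells of line 2869 alone were higher, with 203 reads against 128 (1.26 times, 1.01 to 1.59), the derivative that also had the highest Cdkn1a. The level was below parental in 10 of 11 derivatives, as it was in at least 10 of 11 for 7.13% of tested genes.

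Bbc3, the gene of the death protein Puma, was at 5.00 times the parental level (interval 3.20 to 8.15) in etoposide-resistant cells of line 2883, with 135 reads against 23. Cdkn1a in the same cells had 13 reads against 213. Over the 11 derivatives Bbc3 was higher than parental by the interval in 4, lower in 2 and with an interval holding 1 in 5, at 0.522 to 5.00 times. It was also chosen after its values were seen.

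The genes most like Mdm2 over the 16 libraries were Nup107 (r = 0.893), Atp1b3 (0.883) and Cct2 (0.874), and with line means taken off Os9 (0.853), Mdm1 (0.846) and Dctn2 (0.845). All but Atp1b3, which is on chromosome 9, lie on chromosome 10 with Mdm2, at 117051001 to 127281951.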
